A study of Mus musculus with 12 samples.

Results

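The genes described here make, transport the signal of, or inactivate prostaglandins: 10 genes were listed by name, and a gene was taken as measured where a probe set of the array carried its symbol as the only one. This found 9 of the 10 among 30063 named genes, and each of the 9 had a single probe set. Ptgs1, the constitutive cyclooxygenase, was not analysed here. Ptger2 lay below the array median on too many arrays to be tested, so 8 of the 10 stood among the 20102 genes tested. The RNA came from seminal vesicles of male C57BL/6 mice collected at week 10 and was measured on 12 Affymetrix arrays. Male pups, either wild type (WT) or without estrogen receptor alpha (aERKO, a knockout of Esr1), had been injected under the skin on days 1 to 5 of life with 2 µg per day of diethylstilbestrol (DES), a synthetic estrogen, or with its carrier, corn oil, alone. The 4 groups of 3 arrays are WT_vehicle (WT, corn oil), WT_DES (WT, DES), aERKO_vehicle (knockout, corn oil) and aERKO_DES (knockout, DES), and the design asks which adult transcripts differ after neonatal DES and whether the receptor is needed. The labels give neither the knockout allele nor the number of animals behind each sample, so the p-values reflect the spread between samples alone, and part of it may be technical.

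Prostaglandins are short-lived lipid signals made on demand. A phospholipase frees arachidonic acid from membranes, a cyclooxygenase turns it into an unstable intermediate, a terminal synthase converts that intermediate to a particular prostaglandin, G protein-coupled receptors on nearby cells read it, and a dehydrogenase destroys it. A parallel branch, begun by lipoxygenases, makes leukotrienes from the same arachidonic acid. Semen is rich in prostaglandins, and the seminal vesicle, a secretory gland of the male tract, is a classical source of them.

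Esr1, the targeted gene, averaged 7.75 (vehicle) and 7.66 (DES) in WT on the log2 scale and 6.99 and 6.90 in aERKO, and all aERKO arrays lay below all WT arrays. The secretory proteins that define the gland were at the top of the scale in every group: the mean over 8 measured seminal vesicle genes, among them Svs4 and Svs5, was 13.8 in WT_vehicle, 13.6 in WT_DES and 13.9 in both aERKO groups. Array medians ran from 5.95 to 6.14. In WT_DES the control spots for background averaged 4.87 against 5.31 in WT_vehicle, and the hybridization controls, RNAs added in fixed amounts, were lower by a log2 difference of -0.357. For DES in WT, the effect of this offset on the pathway genes below is given where it ends or starts a call.

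After DES, genes at several steps of the pathway differed in WT. In aERKO none of the 8 passed the test, where 0% of the 20102 tested genes did. In WT_DES, Pla2g4a (cytosolic phospholipase A2, which frees arachidonic acid) was 2.76-fold higher than in WT_vehicle, Hpgds (the hematopoietic prostaglandin D synthase) was 2.34-fold higher, Ptger4 (a prostaglandin E receptor that raises cyclic AMP) was 1.60-fold higher and Alox5 (5-lipoxygenase, the entry enzyme to leukotrienes) was 1.20-fold higher. Hpgd (15-hydroxyprostaglandin dehydrogenase, the main inactivating enzyme) was 1.55-fold lower, a difference that was not called relative to the hybridization controls. Ptgs2, the inducible cyclooxygenase, had the largest mean difference, 4.32-fold, but scattered so widely within WT_vehicle that it did not pass the test. Ptges (the inducible, microsomal prostaglandin E synthase) and Ptgis (prostacyclin synthase) were nearly level. Thus 4 of the 8 tested genes were higher and 1 was lower at a limma adjusted p under 0.05, in a comparison where 43.9% of all tested genes were called, 20.7% higher and 23.3% lower. The WT groups did not overlap for these 5, against 60.9% of all genes tested. The median log2 difference of all 8 was 0.47, against -0.05 over all genes tested. The genes were chosen with earlier results of these data known, so their shares and medians are given as a description. Relative to the hybridization controls 7 of the 8 were higher and none lower, where 41.5% of all genes were called higher and 1.74% lower, and the median of the 8 was 0.83 against 0.31 over all genes. In bulk tissue, a change in a transcript per cell and a change in the number of cells that carry it cannot be told apart.

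The bases upstream of the 5 genes on which these results turn are shown because Pla2g4a, Hpgds and Ptger4 rose together in WT_DES, Hpgd fell there, and Ptgs2 varied most between arrays. RefSeq (GRCm38.p6) supplied a start site for 9 of the 10 listed genes. Each line gives the 250 bases before a start site, 5′ to 3′ on the gene's own strand, and the capitals mark matches to a searched motif. For Hpgds the start is an inner one, since another RefSeq end of the gene lies further out.
Ptgs2 (chr1:150099781-150100030, plus strand): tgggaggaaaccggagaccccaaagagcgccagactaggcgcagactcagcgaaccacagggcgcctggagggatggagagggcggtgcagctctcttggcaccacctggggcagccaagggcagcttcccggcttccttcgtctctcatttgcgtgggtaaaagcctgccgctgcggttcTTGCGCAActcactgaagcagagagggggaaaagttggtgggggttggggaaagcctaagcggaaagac
Pla2g4a (chr1:149961291-149961540, minus strand): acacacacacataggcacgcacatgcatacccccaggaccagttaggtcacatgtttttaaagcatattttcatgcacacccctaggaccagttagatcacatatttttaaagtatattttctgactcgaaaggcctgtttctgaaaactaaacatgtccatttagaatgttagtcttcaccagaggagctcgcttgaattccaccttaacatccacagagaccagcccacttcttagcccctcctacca
Hpgds (chr6:65144731-65144980, minus strand): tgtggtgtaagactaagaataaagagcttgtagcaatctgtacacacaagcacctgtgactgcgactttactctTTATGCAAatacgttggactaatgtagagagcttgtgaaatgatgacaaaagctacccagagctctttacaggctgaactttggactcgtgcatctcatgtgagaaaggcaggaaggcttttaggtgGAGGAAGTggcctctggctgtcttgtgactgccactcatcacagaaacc
Ptger4 (chr15:5244188-5244437, minus strand): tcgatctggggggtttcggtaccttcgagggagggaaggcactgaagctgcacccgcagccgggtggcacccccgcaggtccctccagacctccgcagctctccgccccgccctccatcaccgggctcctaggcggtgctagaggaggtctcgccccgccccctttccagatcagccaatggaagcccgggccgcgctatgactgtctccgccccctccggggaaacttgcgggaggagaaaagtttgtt
Hpgd (chr8:56294302-56294551, plus strand): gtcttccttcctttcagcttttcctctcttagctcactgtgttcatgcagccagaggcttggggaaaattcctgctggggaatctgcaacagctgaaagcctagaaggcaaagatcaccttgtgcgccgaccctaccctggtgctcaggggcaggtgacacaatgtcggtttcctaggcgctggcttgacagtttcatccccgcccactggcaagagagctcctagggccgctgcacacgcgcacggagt

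The search covered 9 motifs on both strands, in windows of 300 bases that ran on for 50 bases past each start. The Ptgs2 window holds the letters TTGCGCAA, a match to the C/EBP motif TTGCNNAA, 69 bases before the start, and its part past the start holds the E-box CACGTG and, overlapping it, CGTCA, the reverse complement of the cyclic AMP response core TGACG. The Hpgds window holds GAGGAAGT, the core bound by the myeloid factor PU.1, 49 bases before the start and a C/EBP match, TTATGCAA, 176 bases before it. The Pla2g4a and Ptger4 windows shown hold none of the 9, and the Hpgd window holds only TATAAA, 5 bases past its start. The estrogen response element (GGTCA, any 3 bases, TGACC), the androgen response element (AGAACA, any 3 bases, TGTTCT), the AP-1 motif TGANTCA and the NF-kB motif (GGG, any 2 bases, TTTCC) matched in none of the windows of the listed genes. Of all 32851 promoter windows of this length, 10.8% hold the C/EBP motif, 3.2% the PU.1 core, 7.15% the E-box, 20.81% the cyclic AMP core, 13.62% TATAAA, 7.81% the AP-1 motif, 1.63% the NF-kB motif, 0.07% the estrogen element and 0.01% the androgen element. A match describes letters only, and a window without one says nothing about the factor.

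**Figure D1:**
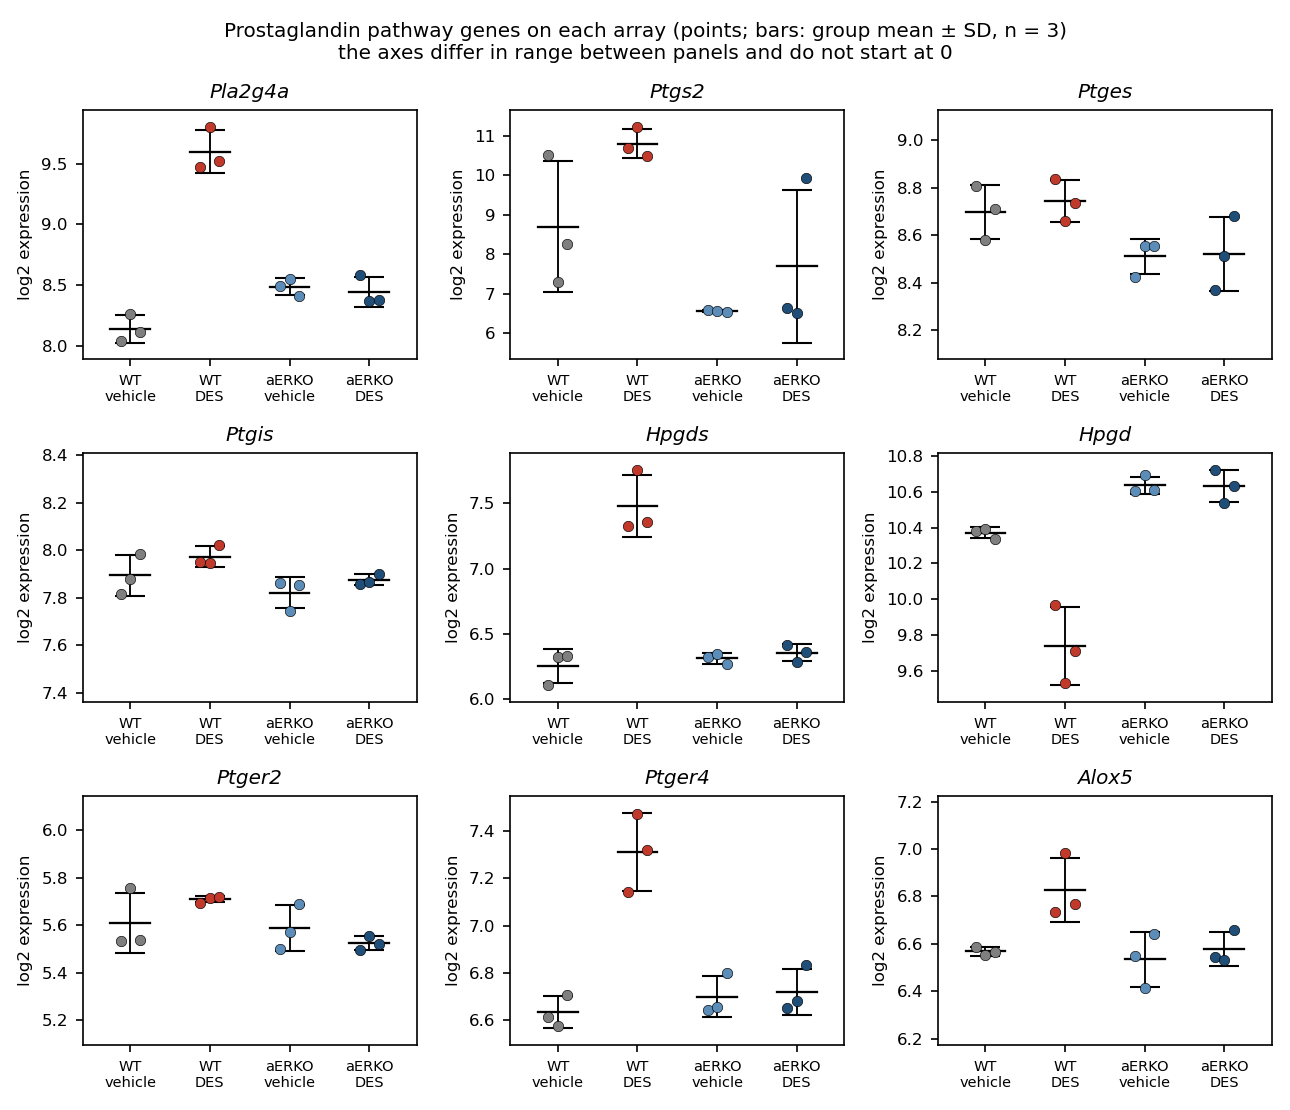
Log2 expression (vertical axis, RMA values) of the 9 measured genes on each of the 12 arrays, by group (horizontal axis); points are arrays, the long bar is the mean and the capped bar the SD of 3 arrays, and the vertical range differs between panels. Pla2g4a, Hpgds and Ptger4 are high on the 3 WT_DES arrays alone and Hpgd is low there, while Ptgs2 also reaches 10.53 on a WT_vehicle array and 9.93 on an aERKO_DES array.

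Pla2g4a encodes the calcium-dependent phospholipase that supplies arachidonic acid to both the prostaglandin and the leukotriene branch. Its log2 level was 8.04, 8.26 and 8.11 on the WT_vehicle arrays and 9.47, 9.80 and 9.53 on the WT_DES arrays. It was 8.49, 8.55 and 8.41 in aERKO_vehicle and 8.58, 8.37 and 8.38 in aERKO_DES. All WT_DES arrays were above all others, the groups did not overlap, and the 2 aERKO groups were intermingled. The log2 difference in WT was 1.46 ± 0.098 (SE, limma adjusted p = 1.73e-07), and in aERKO it was -0.041 with a 95% interval of -0.25 to 0.17. The WT response exceeded the aERKO response by 1.50 ± 0.14 (adjusted p = 7.63e-06), and in 23 alternative settings this excess stayed between 1.35 and 1.73. Among vehicle arrays Pla2g4a lay 0.35 higher in aERKO than in WT without overlap, which limma did not call (unadjusted p = 0.00395, adjusted p = 0.716).

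Ptgs2 encodes the cyclooxygenase that inflammatory stimuli and growth factors induce. It read 10.53, 7.30 and 8.26 in WT_vehicle and 10.70, 11.23 and 10.50 in WT_DES. In aERKO_vehicle it read 6.58, 6.56 and 6.54, and in aERKO_DES 6.65, 6.52 and 9.93. WT_DES was thus uniformly high and aERKO_vehicle uniformly low, while replicate 1 of WT_vehicle overlapped the DES arrays and replicate 3 of aERKO_DES stood far above the other 2 of its group. The SD was 1.66 in WT_vehicle and 1.93 in aERKO_DES against 0.376 in WT_DES and 0.0211 in aERKO_vehicle.

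The log2 difference of Ptgs2 for DES in WT was 2.11 ± 0.85 (SE, 95% interval 0.27 to 3.95, limma adjusted p = 0.0598), and in aERKO it was 1.14 ± 0.85 (-0.70 to 2.98, adjusted p = 0.999). The difference between these responses was 0.97 ± 1.20 (adjusted p = 0.562), with an interval of -1.63 to 3.57 that holds both no difference and a large one. Without replicate 1 of WT_vehicle the WT difference was 3.03 (adjusted p = 0.0108), and without replicate 3 of aERKO_DES it kept its size of 2.11 with an adjusted p of 0.0133. With both arrays left out, a choice made after their values were seen, it was 3.03 ± 0.25 (adjusted p = 1.08e-05), the aERKO difference was 0.026 ± 0.25 and the excess of the WT response was 3.00 ± 0.36 (adjusted p = 0.000307). Without replicate 2 of WT_vehicle, by contrast, the WT difference was 1.41 (adjusted p = 0.221). Over all 24 alternatives its adjusted p ran from 1.08e-05 to 0.221. Given DES, Ptgs2 was 8.63-fold lower in aERKO than in WT (log2 difference -3.11 ± 0.85, adjusted p = 0.00983), without overlap, and this call held in all 24 alternatives, the largest adjusted p being 0.0412.

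Some other transcripts were also high on the arrays where Ptgs2 stood apart. On the WT_vehicle arrays the mean of 6 adipocyte genes was 8.01, 6.64 and 7.03, in the same order as Ptgs2. On the aERKO_DES arrays this mean was 6.33, 6.29 and 6.55. But on the aERKO_vehicle arrays, where Ptgs2 was uniformly low, it was 6.46, 6.58 and 6.37. Within the list, Lpl was lowest on replicate 3 of aERKO_DES (6.98, 6.89 and 6.80), where the other genes were highest. Msmb, a prostate secretory gene, read 12.66, 7.25 and 8.28 in WT_vehicle and 7.18, 7.87 and 9.69 in aERKO_DES. But Msmb read 9.53 and 9.50 on aERKO_vehicle arrays whose Ptgs2 was 6.56 and 6.54. The other measured genes of its list were mixed. Pbsn and Sbp were highest of their group on both arrays where Ptgs2 stood apart. Tgm4 and Gsdma were so only on that of WT_vehicle. Spink1 was lowest on both, at 13.09, 13.21 and 13.20 in WT_vehicle and 13.34, 13.15 and 12.99 in aERKO_DES. Defb1, a beta-defensin listed among epididymis and vas deferens genes, read 9.94, 9.07 and 9.08 in WT_vehicle and 8.30, 8.31 and 9.13 in aERKO_DES. Of the same list, Lcn5 read 6.24, 6.26 and 6.11 in WT_vehicle and 6.17, 6.22 and 6.39 in aERKO_DES. Lcn8 read 6.77, 6.73 and 6.64 in WT_vehicle and 6.48, 6.77 and 6.98 in aERKO_DES. Rnase10 and Adam7 of that list read at most 4.55 on every array. Msmb and Defb1 were chosen for mention after their values were seen, and the part of neighbouring tissue in the Ptgs2 values was not tested. Ptgs2os, an antisense locus at Ptgs2 with a probe set of its own, averaged 6.36, 6.35, 6.28 and 6.31 in WT_vehicle, WT_DES, aERKO_vehicle and aERKO_DES and did not follow Ptgs2.

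Hpgds was the only terminal synthase of the listed genes that passed the test as deposited. This enzyme makes prostaglandin D2 in mast cells, macrophages and some T cells. Hpgds read 6.11, 6.32 and 6.33 in WT_vehicle and 7.33, 7.75 and 7.36 in WT_DES. It read 6.32, 6.35 and 6.27 in aERKO_vehicle and 6.42, 6.29 and 6.36 in aERKO_DES. The 3 WT_DES arrays were above every other array, and the other 3 groups overlapped each other. The log2 difference in WT was 1.22 ± 0.11 (limma adjusted p = 1.82e-06), in aERKO it was 0.043 (95% interval -0.19 to 0.27), and the excess of the WT response was 1.18 ± 0.15 (adjusted p = 0.000114).

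Ptges, which acts after Ptgs2 in inflammatory prostaglandin E2 synthesis, averaged 8.70 ± 0.114 (SD, vehicle) and 8.74 ± 0.0894 (DES) in WT, and 8.51 ± 0.0751 and 8.52 ± 0.155 in aERKO. DES did not move it detectably in WT (log2 difference 0.046, 95% interval -0.15 to 0.24 in limma, adjusted p = 0.693). Given DES it was 0.23 lower in aERKO than in WT at an adjusted p of 0.0515, just outside the threshold, and the groups overlapped. Without replicate 3 of aERKO_DES this difference was -0.30 and passed (adjusted p = 0.0171; range over the alternatives 0.00182 to 0.511). Ptgis, the vascular prostacyclin synthase, averaged 7.89, 7.97, 7.82 and 7.88 in WT_vehicle, WT_DES, aERKO_vehicle and aERKO_DES, and its WT difference was 0.079 (-0.060 to 0.22, adjusted p = 0.326). With arrays shifted to the hybridization controls both were called higher in WT_DES, Ptges by 0.40 (adjusted p = 0.0409) and Ptgis by 0.44 (adjusted p = 0.0212), when the median of all genes also stood at 0.31.

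Hpgd, which oxidises and so ends the action of prostaglandins E2 and F2 alpha, was the only one of the 8 genes that fell. Its level was 10.38, 10.39 and 10.34 in WT_vehicle and 9.97, 9.53 and 9.71 in WT_DES. In aERKO_vehicle it was 10.60, 10.69 and 10.61, and in aERKO_DES 10.72, 10.54 and 10.63. WT_DES lay below all other arrays, and both aERKO groups lay above both WT groups. In WT_DES Hpgd fell by 0.64 ± 0.095 on the log2 scale (limma adjusted p = 0.000197), in aERKO the difference was -0.0037 (95% interval -0.21 to 0.20), and the responses differed by -0.63 ± 0.13 (adjusted p = 0.00516). Relative to the hybridization controls the WT difference was -0.28 (adjusted p = 0.128) and the difference of responses -0.41 (adjusted p = 0.221), so neither was called at that scaling. Over all alternatives these 2 adjusted p-values ran from 2.04e-05 to 0.128 and from 0.000398 to 0.221. Given vehicle, Hpgd was 0.26 higher in aERKO than in WT, without overlap but without a call (unadjusted p = 0.0162, adjusted p = 0.928).

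Ptger4 and Ptger2 encode the prostaglandin E receptors that couple to the stimulatory G protein. Ptger4 read 6.61, 6.58 and 6.71 in WT_vehicle and 7.14, 7.47 and 7.32 in WT_DES. It read 6.64, 6.65 and 6.80 in aERKO_vehicle and 6.65, 6.68 and 6.83 in aERKO_DES. All WT_DES arrays were above all others. The log2 difference in WT was 0.68 ± 0.089 (limma adjusted p = 7e-05), in aERKO it was 0.021 (95% interval -0.17 to 0.21), and the excess of the WT response was 0.66 ± 0.13 (adjusted p = 0.00261). Ptger2 lay between 5.50 and 5.76 on all 12 arrays. Its mean was 5.61 in WT_vehicle, where the background controls averaged 5.31, and 5.71 in WT_DES, where they averaged 4.87. Fitted without the filter on low values it differed by 0.10 ± 0.076 in WT (adjusted p = 0.323).

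Alox5 showed the smallest of the called differences. It read 6.59, 6.55 and 6.57 in WT_vehicle, 6.73, 6.98 and 6.77 in WT_DES, 6.55, 6.41 and 6.64 in aERKO_vehicle and 6.54, 6.53 and 6.66 in aERKO_DES. The WT groups did not overlap, and the lowest WT_DES array lay just above the highest aERKO_DES array. The log2 difference in WT was 0.26 ± 0.081 (limma adjusted p = 0.0212), and the excess over the aERKO response, 0.22 ± 0.11, was not called (adjusted p = 0.177). The WT call was lost without replicate 2 of WT_vehicle (adjusted p = 0.0626), replicate 3 of WT_vehicle (0.0569) or replicate 2 of WT_DES (0.0864), and with arrays shifted to the same median (0.0537), in a range of 0.00305 to 0.0864 over 23 alternatives.

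**Figure D2:**
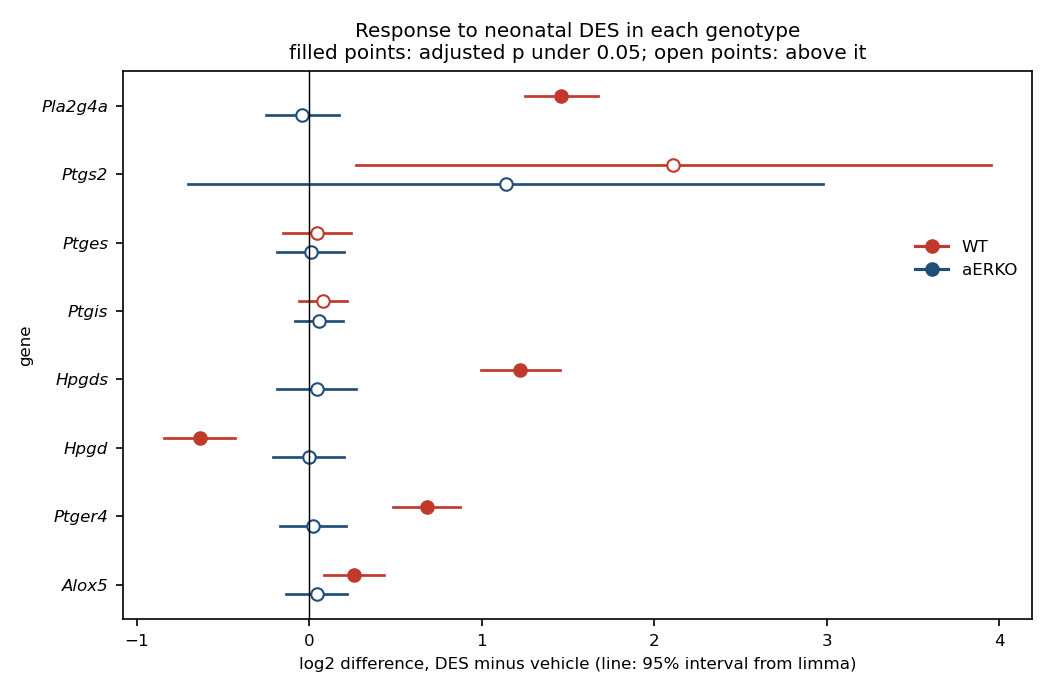
Log2 difference between DES and vehicle (horizontal axis) for the 8 tested genes (vertical axis), in WT and in aERKO; lines are 95% intervals from limma and filled points have an adjusted p under 0.05. In WT the filled points are those of 4 genes to the right of 0 and of Hpgd to its left. The open WT point of Ptgs2 lies furthest right, at 2.11. In aERKO the intervals of the 7 genes other than Ptgs2 all lie within -0.25 and 0.27, and that of Ptgs2 reaches 2.98.

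In aERKO the comparison of DES with vehicle called none of the 8 genes. Here 0% of the 20102 tested genes were called in limma, and 264, or 1.31%, had an unadjusted p under 0.05, none of them among the 8. The aERKO groups overlapped for all 8, where 6.11% of all genes did not overlap. The 7 genes other than Ptgs2 differed by -0.041 to 0.055, and their 95% intervals lay within -0.25 and 0.27, so that changes in aERKO of the size seen in WT for Pla2g4a, Hpgds, Hpgd and Ptger4 fell outside them. The interval of Alox5 in aERKO, -0.13 to 0.22, overlapped its interval in WT, 0.085 to 0.44. The difference between its responses was not called (limma adjusted p = 0.177). The test of the difference between the responses called 4 of the 8, Pla2g4a, Hpgds and Ptger4 upward and Hpgd downward, where 23.3% of all genes were called, 14.1% upward and 9.16% downward. Both responses in this test are measured within genotype, each against its own vehicle group.

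Between genotypes given vehicle, limma called none of the 8 genes, and 5 of 20102 genes (0.0249%) in all, Esr1 among them. At an unadjusted p under 0.05 there were 864 genes, or 4.30%, and 3 of the 8: Pla2g4a, Hpgd and Ptgs2, whose log2 difference was -2.14 ± 0.85 (unadjusted p = 0.0263, adjusted p = 1.0). Vehicle arrays of the genotypes did not overlap for 4 of the 8, against 12.2% of all genes. Given DES, 6 of the 8 were called, 5 lower in aERKO and Hpgd higher, where 52.1% of all genes were called, 27.5% higher and 24.6% lower. The groups were apart for 7 of the 8, against 55.9% of all genes. Besides Ptgs2, the log2 differences were -1.16 for Pla2g4a (adjusted p = 1.4e-06), -1.12 for Hpgds (3.82e-06), 0.89 for Hpgd (1.09e-05), -0.59 for Ptger4 (0.000197) and -0.25 for Alox5 (0.0216). This comparison shares the WT_DES arrays with that of DES in WT, so its values are not separate evidence.

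The other genes of prostanoid and leukotriene metabolism included increases and decreases. Of 54 further genes listed by role, 50 were named and 39 tested, and in WT 13 were higher and 8 lower in WT_DES, where 20.7% of all genes were called higher and 23.3% lower, with a median of -0.04 against -0.05 over all genes. Of the 13 tested leukotriene and lipoxygenase genes 7 were higher and 1 lower, with a median of 0.32. Of 12 other phospholipases 3 were higher and 3 lower, of 5 other synthases 2 and 1, of 5 genes of transport and inactivation 1 and 2, and of 4 other receptors none and 1. The branches were not tested against each other or against other genes. Relative to the hybridization controls 18 of the 39 were higher and 1 lower, where 41.5% of all genes were called higher and 1.74% lower. Their median was then 0.32 against 0.31 over all genes. Called higher at this scaling but not as deposited were Slco2a1 (0.59, limma adjusted p = 0.00364), Ggt5 (0.55, 0.00695) and Ptgir (0.54, 0.016). So were Ptgr2 (0.38, 0.0412) and Prxl2b (0.38, 0.0488).

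Pla2g7, a secreted phospholipase of macrophages that degrades platelet-activating factor, had the largest rise. It read 7.12, 6.90 and 7.03 in WT_vehicle and 9.95, 10.46 and 9.79 in WT_DES, an 8.27-fold difference (log2 3.05 ± 0.13, limma adjusted p = 2.88e-09), and stayed between 6.67 and 6.91 in aERKO. Alox5ap, the protein that presents arachidonic acid to 5-lipoxygenase, read 7.47, 7.18 and 7.82 in WT_vehicle and 10.06, 10.51 and 9.93 in WT_DES (6.39-fold, adjusted p = 2.34e-07). Alox5, its partner, was 1.20-fold higher. Cysltr1, a receptor for cysteinyl leukotrienes, was 3.05-fold higher, Alox15, a lipoxygenase of macrophages, 1.87-fold, Tbxas1, thromboxane synthase, 1.77-fold, and Pla2g15, a lysosomal phospholipase, 1.61-fold. These 6 genes also passed the test of a larger response in WT than in aERKO, at adjusted p-values from 2.74e-07 for Pla2g7 to 0.00832 for Alox15.

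The decreases in WT_DES were smaller, from -0.83 to -0.22. The phospholipases Pla2g12a and Pla2g6 differed by -0.83 (adjusted p = 2.9e-05) and -0.45 (adjusted p = 8.04e-05). Ptger3, the prostaglandin E receptor that lowers cyclic AMP, differed by -0.62 (adjusted p = 0.003), opposite in sign to Ptger4. Ptgds, the lipocalin-type prostaglandin D synthase, differed by -0.47 (adjusted p = 0.00722), opposite in sign to Hpgds, which makes the same product. Ptgr1, which acts on prostaglandin metabolites after Hpgd, differed by -0.34 (adjusted p = 0.00698), and Aloxe3, an epidermal lipoxygenase, by -0.31 (adjusted p = 0.00903). Relative to the hybridization controls only Pla2g12a of the 8 decreases was still called (-0.47, limma adjusted p = 0.0108). Ptger3, Ptgds and Pla2g6 then differed by -0.26, -0.11 and -0.095 without a call, and the sign of Ptgr1, Aloxe3, Cbr1 and Pla2g4e turned (0.021, 0.047, 0.089 and 0.14), also without a call. Of the 6 genes described first, Pla2g12a and Pla2g6 passed the test between the responses of the genotypes (adjusted p = 0.0067 and 0.00371), and the other 4 did not.

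Ptgds was also the only gene of these lists called between genotypes given vehicle. It read 8.28, 8.32 and 8.43 in WT_vehicle and 9.08, 9.39 and 9.33 in aERKO_vehicle. In WT_DES it read 7.95, 7.60 and 8.09, and in aERKO_DES 9.13, 9.09 and 8.97. All 6 aERKO arrays were above all 6 WT arrays, by a log2 difference of 0.92 ± 0.12 given vehicle (limma adjusted p = 0.019) and 1.18 ± 0.12 given DES (adjusted p = 6.18e-06). Hpgds, by comparison, differed by 0.058 between genotypes given vehicle (95% interval -0.17 to 0.29). Given DES, 24 of the 39 further genes were called, 11 higher in aERKO and 13 lower, where 27.5% of all genes were called higher and 24.6% lower, the lower ones led by Pla2g7 (-3.25), Alox5ap (-2.72), Cysltr1 (-1.64), Alox15 (-0.79) and Tbxas1 (-0.79).

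**Figure D3:**
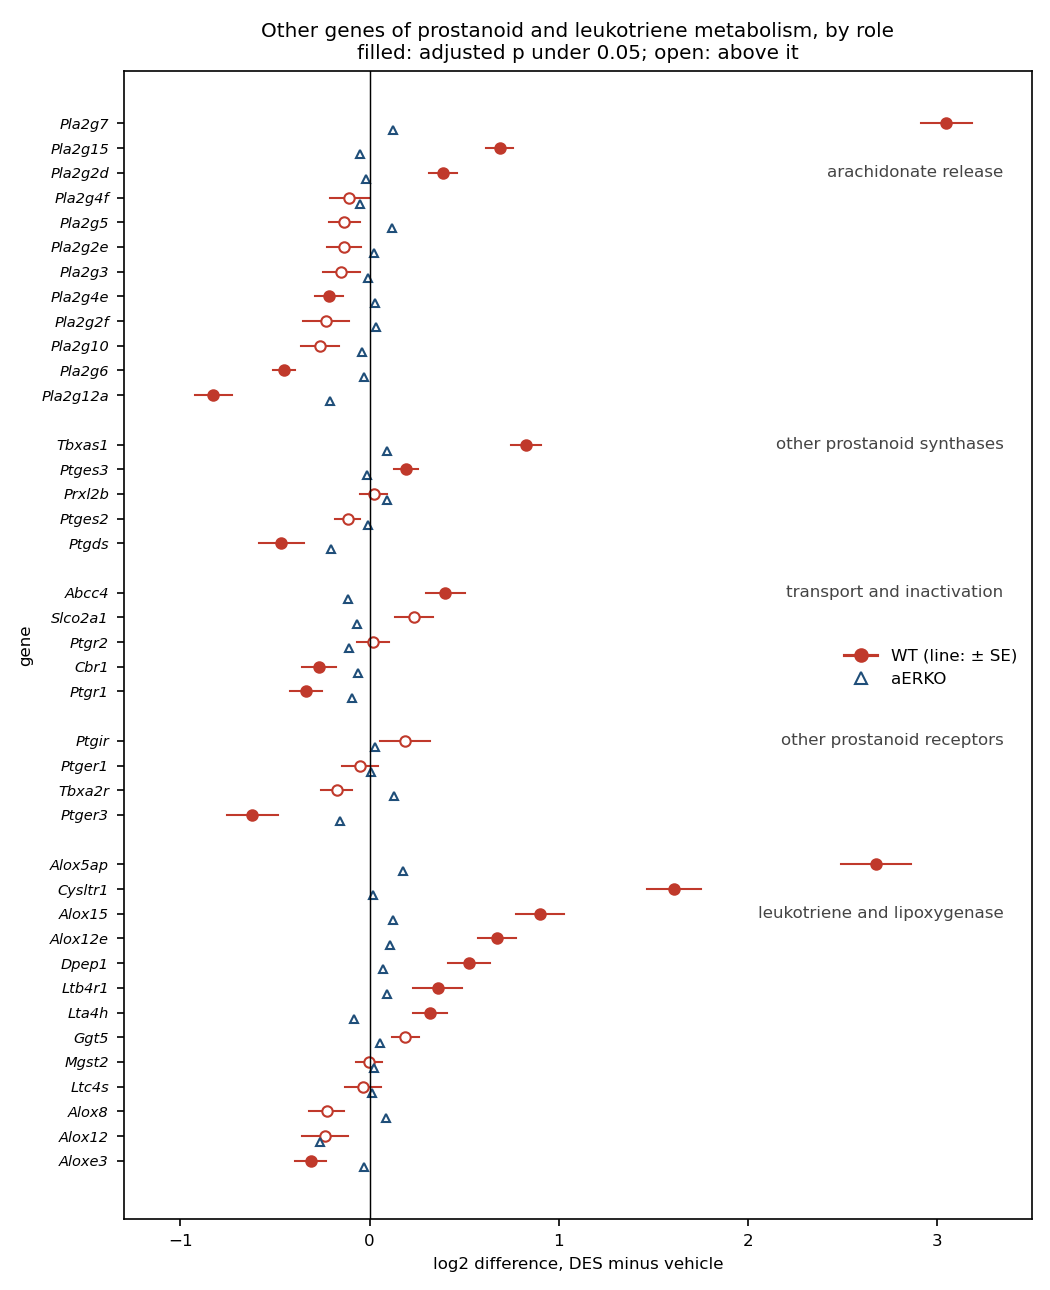
Log2 difference between DES and vehicle (horizontal axis) for the 39 further tested genes of prostanoid and leukotriene metabolism (vertical axis, grouped by role); circles with SE lines are WT, filled where the adjusted p is under 0.05, and open triangles are aERKO, none of which was called. Pla2g7 at 3.05 and Alox5ap at 2.68 stand far to the right in WT, and the aERKO values lie between -0.26 and 0.18.

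Marker genes of several cell types moved in WT_DES together with Pla2g4a, Hpgds, Ptger4 and Alox5. For DES in WT, 20.7% of all tested genes were called higher and 23.3% lower, or 41.5% and 1.74% relative to the hybridization controls. Of 12 macrophage genes 11 were higher and 1 lower, with a median log2 difference of 2.13, and the mean over the list was 7.63 to 7.87 on the WT_vehicle arrays, 9.64 to 10.03 on the WT_DES arrays, 7.60 to 7.66 in aERKO_vehicle and 7.65 to 7.87 in aERKO_DES. Of 12 neutrophil genes 9 were higher and none lower (median 1.90), of 7 T cell genes 6 (median 1.00), of 7 B and plasma cell genes 6 (median 1.54), of 8 endothelial genes 8 (median 0.66), of 7 fibroblast genes 7 (median 1.49) and of 8 basal and squamous epithelial genes 8 (median 1.23). Of 9 luminal epithelial genes 5 were higher and 2 lower, and neither adipocyte nor vas deferens and epididymis genes gave a call. Lower were 7 of 9 smooth muscle genes (median -0.43, none relative to the hybridization controls), 5 of 8 seminal vesicle genes (median -0.25, likewise none) and 4 of 5 prostate and coagulating gland genes (median -0.70, 2 relative to the controls). In aERKO none of these lists held a gene called after DES, where 0% of all tested genes were called. The part of a changed cell mixture in the values of the pathway genes was not tested.

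Mast cell genes, of interest beside Hpgds, were mixed. Of 11 listed genes 7 were tested, and Cpa3 (log2 difference 0.96), Hdc (0.89) and Kit (0.71) were higher and Gata2 (-0.84) was lower. For DES in WT, 20.7% of all tested genes were called higher and 23.3% lower. The defining genes Fcer1a, Ms4a2, Mrgprb2 and Tpsab1 lay too low to be tested. The mean of the 11 genes was 6.28 to 6.36 in WT_vehicle and 6.39 to 6.51 in WT_DES. It was 6.37 to 6.41 in aERKO_vehicle and 6.30 to 6.58 in aERKO_DES. This mean includes the genes too low to be tested. The part of mast cells in the Hpgds values was not tested.

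**Figure D4:**
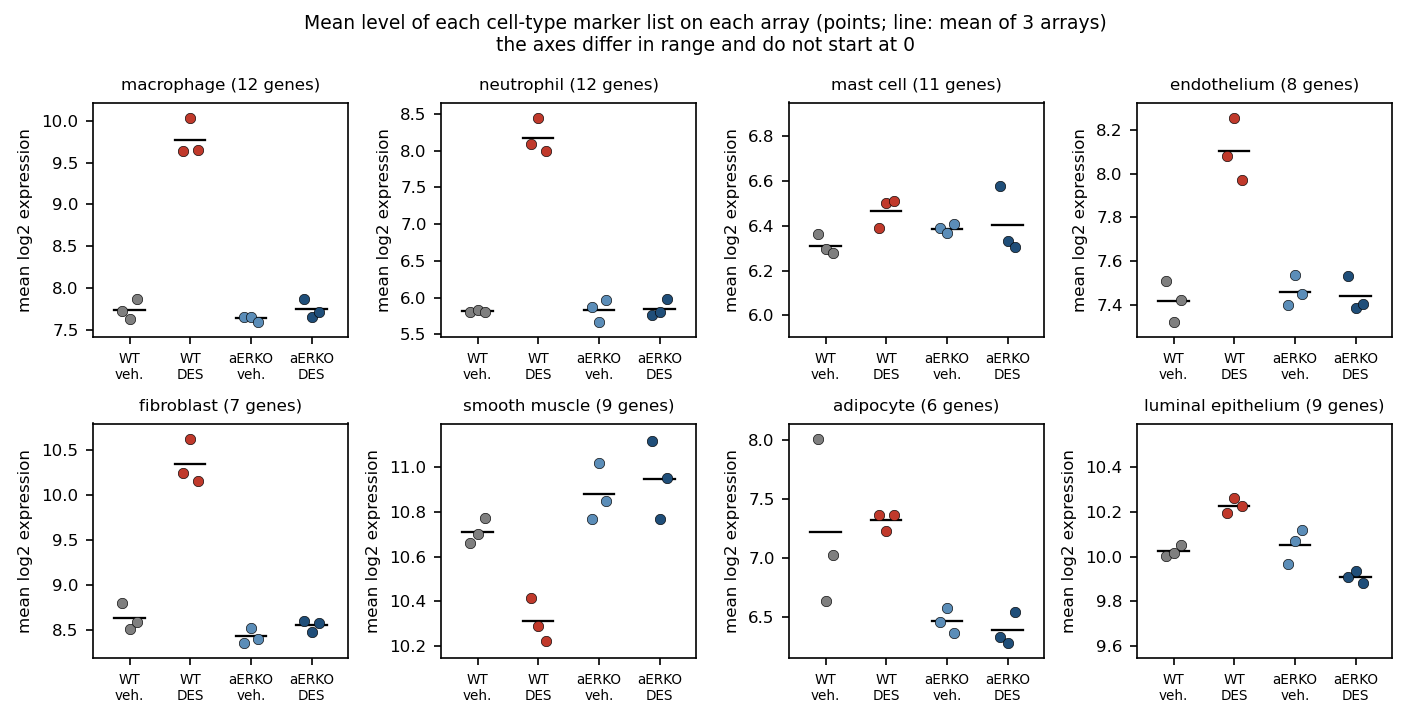
Mean log2 expression over each cell type marker list (vertical axis) on each array, by group (horizontal axis); points are arrays, lines are means of 3 arrays, and the vertical range differs between panels. Macrophage, neutrophil, endothelial and fibroblast lists are high on the 3 WT_DES arrays, smooth muscle is low there, and the adipocyte list is highest, at 8.01, on the WT_vehicle array that also had the highest Ptgs2 of its group.

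The patterns of the pathway genes over the 12 arrays were set against those of 14615 named genes by Pearson correlation. Since the WT_DES arrays stand apart from the rest and share 1 treatment, correlations with Hpgds, Pla2g4a, Ptger4, Alox5 and Hpgd mainly record that contrast. This does not hold for Ptges, whose nearest gene, Trpm3, averaged 6.04 in both WT groups, 5.79 in aERKO_vehicle and 5.81 in aERKO_DES. All correlations are given as a description. Closest to Hpgds were Themis2 (r = 0.998), Lair1 (0.996) and Lax1 (0.996), and Themis2 averaged 7.07 in WT_vehicle and 8.96 in WT_DES. Closest to Pla2g4a were Fgf7 (0.989), a fibroblast growth factor, Hif1a (0.985), the hypoxia-inducible transcription factor, and Tnc (0.985), the matrix protein tenascin C. Closest to Ptger4 were Tnfaip8 (0.994), Acvrl1 (0.993) and Pcsk5 (0.992), and closest to Alox5 were Rasgrp4 (0.982), Cyp4f18 (0.981) and Syt8 (0.979). Closest to Hpgd were Slco4c1 (0.989), an organic anion transporter that fell from 10.78 in WT_vehicle to 9.62 in WT_DES, Pate8 (0.987) and Nr4a3 (0.987).

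The genes nearest to Ptgs2 were picked by their correlation with it over these same arrays. That they were also high on the 2 arrays where it stood apart from its group follows from that choice. Abcg2 (r = 0.952), an efflux transporter, read 8.51, 6.92 and 7.22 in WT_vehicle, 8.07, 8.15 and 7.73 in WT_DES, 6.69, 6.85 and 6.61 in aERKO_vehicle and 6.85, 6.72 and 7.53 in aERKO_DES. Within their groups Abcg2 and Ptgs2 were both highest on replicate 1 of WT_vehicle and on replicate 3 of aERKO_DES. Abcg2 on that WT_vehicle array was above every WT_DES array, whereas Ptgs2 read 10.53 there and up to 11.23 in WT_DES. Pax8 (0.95), a transcription factor of urogenital epithelium, read 7.54, 7.18 and 7.23 in WT_vehicle and 7.14, 7.12 and 7.45 in aERKO_DES, and Ppip5k1 (0.949) followed with a largest deviation of 0.15. Ptges was closest to Trpm3 (0.954), Thra (0.907) and Defb1 (0.906), and Ptgis to Mfap2 (0.874), Itgae (0.865) and Tap2 (0.865), genes with small deviations apart from Defb1.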

How the data were processed

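RNA from seminal vesicles was measured on 12 arrays, 3 in each of 4 groups (from the titles). The labels' protocols give Trizol extraction and biotin labelling of 300 ng. What the authors deposited is a log2 value for each probe set, computed with RMA, and the submitters' processing notes name Affymetrix Expression Console as the program. RMA forces arrays to a common distribution of values, so many rising genes can lower the values of others. Its version was not given in the sources used here, and the labels name no scan date or batch.

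Of 72688 probe sets, 30604 had exactly 1 gene symbol in the platform annotation, 2146 several and 39938 none; only the first were named, and 1135 symbols were updated with the mouse gene table of GRCm38.p6. This gave 30063 genes, represented, where a gene had several probe sets, by the one with the highest mean. Genes above the array median on at least 3 of 12 arrays were tested, which kept 20102 and removed 9961.

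Tests used limma 3.58.1 in R 4.3.3 (lmFit and eBayes, group means, 12 arrays fitted together, two-sided), with Benjamini-Hochberg adjustment over all tested genes in each of 5 comparisons and a threshold of 0.05. It had 8 residual degrees of freedom and 4.33 prior ones, and was tested on simulated data. With 3 arrays against 3, an exact permutation test reaches no p under 0.1, so none was run. Arrays give no read depth, and their number limits the precision.

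The genes and lists were chosen with earlier results of these data known. Named genes are all listed genes, up to 6 called increases and 6 called decreases per comparison among the further pathway genes, up to 3 members per marker list, and for each listed gene the 3 most alike. Alternatives were no filter or a stricter one, the mean of all probe sets, every probe set tested, moderation with a trend and robust, array weights, only the groups compared, quantile normalization, arrays shifted to the same median or to the 4 hybridization controls, the replicate number as a block, each array left out in turn, and, added after the data were seen, leaving out both arrays of high Ptgs2. Ptgs1 was not analysed here, since no probe set carried its symbol alone.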

Additional observations from a re-analysis of the deposited data

Results flagged for a closer look

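In 4 of the genes the response to DES differed between WT and aERKO in limma's test of the difference itself. That test called 23.3% of all tested genes. The WT response minus the aERKO response was 1.50 on the log2 scale for Pla2g4a, 1.18 for Hpgds and 0.66 for Ptger4, and -0.63 for Hpgd. In each of the 4 all 3 WT_DES arrays lay on one side of all 3 WT_vehicle arrays, and the aERKO groups overlapped. Over all tested genes, the WT groups did not overlap for 60.9% and the aERKO groups for 6.11%. No group of 3 arrays was tested for single arrays far from the rest.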

How the results depend on the processing

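Each of the 8 genes was refitted under up to 24 alternatives. Of 947 values 920 kept their side of the threshold, 11 lost a call, 16 gained one and none of those called changed sign. Among the 920 were 37 uncalled values that changed sign, between -0.11 and 0.13. The number of the 8 genes called ran from 4 to 7 for DES in WT, 3 to 5 for the difference of responses and 5 to 7 for aERKO against WT given DES, and it was 0 throughout in the other 2 comparisons. The Hpgds, Pla2g4a and Ptger4 calls for DES in WT, for the difference of responses and for aERKO against WT given DES held in every alternative. Ptgs2 in WT was also called with only the groups compared (adjusted p = 0.041), with array weights (0.0332) and with the hybridization controls (2.47, adjusted p = 0.000386). The Alox5 call in aERKO against WT given DES was lost with only the groups compared (adjusted p = 0.0663), with arrays at the same median (0.0812), and without replicate 2 of WT_DES (0.0904), replicate 1 of aERKO_DES (0.0562) or replicate 2 of aERKO_DES (0.0676). The stricter filter left Alox5 untested.

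Over all genes, 4679 were called for the difference of responses, but 8164 with array weights and 2939 with the hybridization controls. For aERKO against WT given vehicle 5 were called, but 8 with only the groups compared, 80 with array weights, 14 with the hybridization controls, 2 without both arrays of high Ptgs2 and 0 to 6 leaving out 1 array. For aERKO against WT given DES the hybridization controls gave 6378 in place of 10483, 553 higher and 5825 lower in place of 5529 and 4954. Leaving out 1 array gave 0 to 1 for DES in aERKO. The cause of these shifts was not tested. With the hybridization controls, DES in WT gave 8345 higher and 350 lower genes in place of 4152 and 4677.

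Arrays with the same replicate number deviated together in 6 of 18 pairs (correlation over 0.1, range -0.36 to 0.52), so the numbers were not taken to pair the samples. All 6 joined replicates 2 or replicates 3 of WT_DES, aERKO_vehicle and aERKO_DES, at 0.18 to 0.52. The highest correlation between different numbers was 0.58, for aERKO_vehicle 2 and aERKO_DES 1. A batch shared by some of these arrays was not tested. With the replicate block 5, 0, 4, 0 and 6 of the 8 genes were called in the 5 comparisons, as without it. Over all genes it called 9988 in place of 8829 for DES in WT and 5991 in place of 4679 for the difference of responses.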
